A study of Homo sapiens with 2 samples.

Results

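Autophagy and lysosome genes were followed in H1299, a human cell line from a non-small cell lung carcinoma, after transfection of the transcription factor EGR1. The members were 48 genes chosen by their known roles, and all 48 were represented among the 18132 genes of the array. A gene stood for its brightest probe set, that is the probe set with the highest mean of both arrays. The cells of the EGR1 sample had been transiently transfected with a pcDNA plasmid carrying EGR1, and those of the control sample with the empty pcDNA3.1 vector. Both were collected 48 hours later, and 2 µg of total RNA per sample went into biotin-labelled cRNA for an Affymetrix array. The share of cells that took up the plasmid is not stated in the sources used here. Each group held 1 array, so no difference below has a replicate check, an error between cultures or a p-value, and every value describes these 2 arrays.

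Macroautophagy starts when the ULK kinase complex activates a lipid kinase complex around beclin 1, which marks the membrane on which an autophagosome grows. ATG9 vesicles, the lipid transfer proteins ATG2A and ATG2B and the WIPI proteins supply and shape that membrane, and 2 ubiquitin-like conjugation systems attach LC3 and GABARAP proteins to it. Cargo receptors bind ubiquitinated cargo to those proteins, and the closed autophagosome fuses with a lysosome, whose hydrolases digest the content. TFEB and TFE3 are the transcription factors best known for switching on lysosomal and autophagy genes, through a palindromic promoter element with CACGTG at its core. EGR1 is an immediate-early zinc-finger factor that binds GC-rich elements of the form GCGNGGGCG.

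The promoters of some members hold the letters GCGNGGGCG or CACGTG, and 5 stretches are shown. EGR1 was the transfected factor, and CACGTG is the core of the TFEB type of element. RefSeq (GRCh38.p14) gave 50 promoters for 40 of the 48 members, each from 250 bases before to 50 after a transcription start. Only the 250 bases upstream of the start are printed, 5′ to 3′ on the gene's strand, and capitals mark the searched letters. The SQSTM1 stretch (chr5:179820655-179820904, plus strand) and the WIPI2 stretch (chr7:5189983-5190232, plus strand) each hold 1 match to GCGNGGGCG.

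SQSTM1: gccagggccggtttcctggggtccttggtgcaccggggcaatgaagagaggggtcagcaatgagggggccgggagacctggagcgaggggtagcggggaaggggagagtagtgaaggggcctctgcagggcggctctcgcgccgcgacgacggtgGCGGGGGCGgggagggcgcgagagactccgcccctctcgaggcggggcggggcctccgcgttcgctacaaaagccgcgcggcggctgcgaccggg

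WIPI2: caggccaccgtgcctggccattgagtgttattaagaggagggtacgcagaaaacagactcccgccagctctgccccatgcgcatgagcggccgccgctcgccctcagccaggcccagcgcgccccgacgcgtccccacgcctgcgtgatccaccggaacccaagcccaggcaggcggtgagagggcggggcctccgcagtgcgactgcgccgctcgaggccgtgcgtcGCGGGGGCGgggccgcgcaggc

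The MCOLN1 stretch (chr19:7522374-7522623, plus strand) holds 2 copies of CACGTG, the LAMP1 stretch (chr13:113296989-113297238, plus strand) 5 and the ATG3 stretch (chr3:112561963-112562212, minus strand) 1.

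MCOLN1: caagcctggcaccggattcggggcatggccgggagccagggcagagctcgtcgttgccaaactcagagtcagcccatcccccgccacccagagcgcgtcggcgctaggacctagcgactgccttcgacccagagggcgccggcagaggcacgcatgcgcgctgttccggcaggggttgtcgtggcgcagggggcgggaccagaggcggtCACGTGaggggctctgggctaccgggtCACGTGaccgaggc

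LAMP1: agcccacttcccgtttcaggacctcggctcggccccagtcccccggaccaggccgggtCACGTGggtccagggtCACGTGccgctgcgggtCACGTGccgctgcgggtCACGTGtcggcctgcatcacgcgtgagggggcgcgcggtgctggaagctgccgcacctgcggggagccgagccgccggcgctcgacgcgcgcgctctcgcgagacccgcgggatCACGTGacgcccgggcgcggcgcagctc

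ATG3: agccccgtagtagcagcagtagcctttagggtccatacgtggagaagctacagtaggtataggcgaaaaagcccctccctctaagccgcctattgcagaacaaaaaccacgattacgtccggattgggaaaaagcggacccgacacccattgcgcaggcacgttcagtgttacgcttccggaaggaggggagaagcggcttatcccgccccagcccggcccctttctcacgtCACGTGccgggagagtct

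The transfected gene served as a check of the labels. EGR1 had 6 probe sets, of which 2 were beyond 2-fold higher in the EGR1 array, the largest at 11.43 against 7.70 on the log2 scale in the empty-vector array (13.3-fold). The other 4 had differences from -0.39 to -0.20, and where each lies relative to the plasmid insert was not established here. Of the markers fixed for a simple epithelial cell, KRT8, KRT18, KRT19 and KRT7 were past the signal floor, but EPCAM and CDH1 were under it on both arrays. These markers differed between the arrays: KRT8 was 3.99-fold and KRT18 3.39-fold higher in the EGR1 array, and KRT7 was 1.47-fold lower. KRT7 has 1 probe set, at 5.20 in the EGR1 array and 5.75 in the empty-vector array. It was past the floor only by its mean, so its fold is uncertain. Past the same floor were 2 of 5 leukocyte, 1 of 6 fibroblast and 3 of 6 endothelial markers, beside 12652 of all 18132 genes. The part of any of these markers in the results was not tested. The floor stood at 5.22 (log2), which 40% of all probe sets lay under by their mean over both arrays. It is no detection call, and levels of different probe sets cannot be read as relative amounts of RNA.

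All 48 members lay past that floor, and their levels were close on both arrays. The median difference, EGR1 minus empty vector on the log2 scale, was 0.004 over the members, beside 0 over all 18132 genes and -0.02 over the 12652 genes past the floor. Higher in the EGR1 array were 25 members and lower were 22, while UVRAG had the same value on both. Over all represented genes 47.6% lay above 0 and 47.9% below. Of the 12652 genes past the floor, 5647 (44.6%) lay above 0 and 6674 below. Counts by role group further down are mostly set beside the shares of all represented genes. The members ran from -0.30 for ATG2B to 0.41 for ATG101. No member reached 1.5-fold in either direction, where 0.941% of the genes past the floor were 1.5-fold or more higher and 0.229% lower. None reached 2-fold either, against backgrounds of 0.348% higher and 0.0079% lower. At 1.2-fold, a low threshold chosen because few genes on these arrays pass 2-fold, 2 members were higher and 2 were lower. Of all genes past the floor 7.07% were 1.2-fold or more higher and 5.85% lower, so the members' share was near the background in both directions. The median size of a difference regardless of sign was 0.10 for members and 0.11 for genes past the floor.

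**Figure D1:**
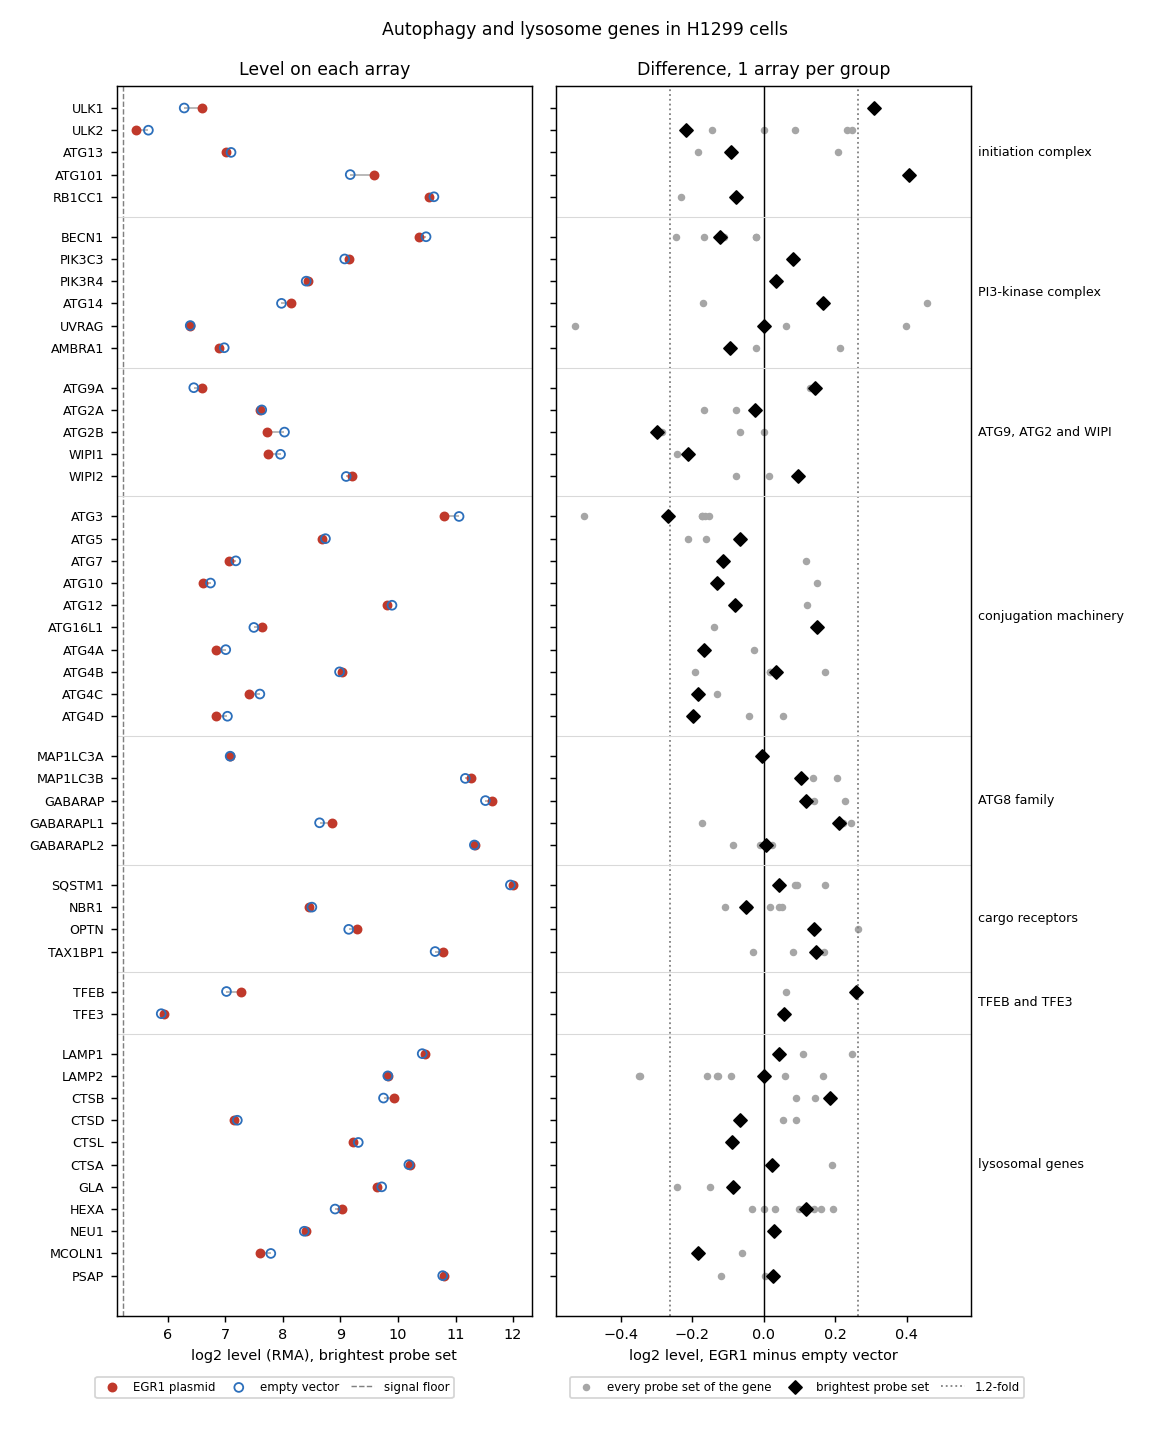
Left, log2 level of each of the 48 members on the EGR1 array (filled points) and the empty-vector array (open points), with the signal floor dashed. Right, the difference EGR1 minus empty vector for the brightest probe set (diamonds) and for every probe set of the gene (grey points), with dotted lines at 1.2-fold. ATG101 and ULK1 lie to the right of the upper line and ATG2B and ATG3 to the left of the lower one. Levels of different genes are not comparable.

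Different probe sets for one gene were the only repeat measurement, and they were not always independent readings. For ATG2A 2 of them gave identical levels, 7.61 in the EGR1 array and 7.63 in the empty-vector array. ATG4B also had 2 with identical levels, so counts of probe sets on one side of 0 can count the same reading again. For 7114 genes 2 or more probe sets reached the floor. Their differences scattered within a gene with a pooled SD of 0.15 (log2), and for the 37 such members that SD was 0.10. This covers probe-level error alone and leaves out the error between cultures, transfections and arrays. The difference of 15 members exceeded 0.15 in size (31.3%), beside 37.5% of genes past the floor. In 20 of the 37 members all probe sets past the floor lay on one side of 0 (54.1%), beside 55.5% of the 7114 genes. By both measures the members' share was near that of genes in general. A further 7 members had a single probe set of any level, so their values have no second reading.

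The ULK initiation complex held both members at 1.2-fold or more higher. They are 40% of its 5 genes, beside 7.07% of all genes past the floor, and no test was possible. ATG101, a subunit that stabilises ATG13, had a log2 level of 9.58 in the EGR1 array and 9.17 in the empty-vector array, a difference of 0.41 (1.33-fold). Of 1546 genes within 0.5 log2 units of its mean level 2.26% differed more in size. ULK1, the kinase that starts autophagosome formation, had a level of 6.60 in the EGR1 array and 6.29 in the empty-vector array, a difference of 0.31 (1.24-fold). Of 2791 genes of like level 12.0% differed more. These 2 highest members rest on 1 probe set each. Both were singled out by size among all the members, so low percentages come with the choice. The other subunits lay lower. The related kinase ULK2 read 5.45 in the EGR1 array and 5.67 in the empty-vector array, barely past the floor, a difference of -0.22. Its 5 dimmer probe sets, all under the floor, went both ways or not at all, up to 0.25, and with the mean of all its probe sets the difference was 0.03. ATG13, the scaffold of the complex, differed by -0.09 (7.01 in the EGR1 array and 7.10 in the empty-vector array), and another of its probe sets past the floor by 0.21. RB1CC1 (FIP200), the large scaffold that docks the complex, differed by -0.08, and its second probe set by -0.23. The median of the 5 subunits was -0.08 and their mean 0.07, so the summary of this group has no settled sign.

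Members of the beclin 1 lipid kinase complex differed little. BECN1, its regulatory core, had a level of 10.36 in the EGR1 array and 10.49 in the empty-vector array, a difference of -0.12. All 6 of its probe sets lay below 0, from -0.24 to -0.02. ATG14, which directs the complex to autophagosome formation, was at 8.14 in the EGR1 array and 7.98 in the empty-vector array, a difference of 0.17. Its other probe sets gave 0.16, -0.17 and, under the floor, 0.46. UVRAG, the subunit of the alternative complex in endosome traffic, read 6.39 on both arrays to the last digit. Its other probe set past the floor differed by 0.06, and those under the floor by -0.53 and 0.40. Identical values also occur elsewhere on these arrays, in 2399 of the 44994 probe sets with 1 gene. The catalytic subunit PIK3C3 (VPS34) differed by 0.08, its partner PIK3R4 (VPS15) by 0.03 and the beclin 1 regulator AMBRA1 by -0.09. The median of the 6 genes was 0.02, with 3 above 0 and 2 below, beside 47.6% and 47.9% of all genes.

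In the group that supplies and shapes the membrane, the lowest values were those of ATG2B and WIPI1, while their paralogues ATG2A and WIPI2 differed by -0.02 and 0.10. ATG2B, a lipid transfer protein, read 7.73 in the EGR1 array and 8.03 in the empty-vector array, a difference of -0.30 (1.23-fold lower) and the lowest of all members. Its second probe set past the floor gave -0.28, and with 2 dim ones averaged in the difference was -0.16, under 1.2-fold, whereas its paralogue ATG2A differed by -0.02, with 4 probe sets from -0.17 to -0.02. WIPI1, which binds the phosphoinositide made by the lipid kinase, read 7.75 in the EGR1 array and 7.96 in the empty-vector array, a difference of -0.21, and its other probe set gave -0.24. WIPI2, which recruits ATG16L1, differed by 0.10, and its probe sets went both ways (-0.08 to 0.10). The scramblase ATG9A differed by 0.14 with its other probe set at 0.13. Whether the paralogues differ from each other could not be tested with 1 array per group. Over the 5 genes the median was -0.02.

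In the conjugation machinery 8 of 10 members lay below 0 by their brightest probe sets. Below 0 were also 47.9% of all genes and 6674 of the 12652 genes past the floor. In this group 1 gene (10%) was at 1.2-fold or more lower, beside 5.85% of genes past the floor. The median was -0.12, beside -0.02 over all genes past the floor. Averaging every probe set of a gene gave -0.05 instead, and the second brightest -0.07. That gene was ATG3, the E2-like enzyme that transfers LC3 and GABARAP proteins to lipid. Its level was 10.79 in the EGR1 array and 11.06 in the empty-vector array, a difference of -0.27 (1.2-fold lower), and 4.68% of 577 genes of like level differed more in size. ATG3 was singled out by size among 48 members, so a low percentage comes with the choice. All 6 probe sets of ATG3 lay below 0, the 5 past the floor between -0.27 and -0.15, so the brightest gave the largest of those 5 differences. Its 1.2-fold call was lost in 5 of 10 alternatives, including the mean of all probe sets (-0.24) and the second brightest probe set (-0.17). Some of the other alternatives, such as a changed floor, could not alter its value. Of the 4 members beyond 1.2-fold, ATG101 and ULK1 had 1 probe set past the floor, ATG2B had 2 and ATG3 had 5. ATG7, the E1-like enzyme, differed by -0.11 and ATG10, the E2-like enzyme for ATG12, by -0.13. ATG7 also had a probe set at 0.12, and ATG10 had one under the floor at 0.15. ATG5 and ATG12, which are joined to each other, differed by -0.07 and -0.08. All 3 ATG5 probe sets were below 0, down to -0.21, while the second ATG12 probe set gave 0.12. ATG16L1, which binds the ATG12 and ATG5 conjugate, went the other way at 7.65 in the EGR1 array and 7.50 in the empty-vector array (0.15), but its other probe set gave -0.14.

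The ATG4 proteases, which process LC3 and GABARAP proteins and release them from lipid, belong to the same machinery. ATG4D was at 6.84 in the EGR1 array and 7.04 in the empty-vector array (-0.20), although another probe set gave 0.05. ATG4C was at 7.42 in the EGR1 array and 7.60 in the empty-vector array (-0.19), and ATG4A at 6.84 in the EGR1 array and 7.01 in the empty-vector array (-0.17). Both probe sets of each of ATG4C and ATG4A lay below 0. ATG4B, the family member with the broadest activity, differed by 0.03, with 6 probe sets from -0.19 to 0.17. So 3 of the 4 proteases lay lower, beside 47.9% of all genes and 6674 of the 12652 genes past the floor. Those 3 differed by about the same small amount, close to the pooled probe-set SD of 0.15.

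The substrates of that machinery, the ATG8 family, lay mostly on the other side by their brightest probe sets. Of 5 genes 4 were above 0, beside 47.6% of all genes, and the median was 0.10. GABARAPL1 read 8.85 in the EGR1 array and 8.64 in the empty-vector array (0.21, 1.16-fold). A probe set of it without the suffix _x_at gave -0.17, one under the floor gave 0.24, and _x_at probe sets can bind similar transcripts. GABARAP read 11.64 in the EGR1 array and 11.52 in the empty-vector array (0.12), and its 4 probe sets ran from 0.12 to 0.23. MAP1LC3B, the LC3 protein most used as an autophagosome marker, read 11.27 in the EGR1 array and 11.17 in the empty-vector array (0.10). All 4 of its probe sets lay between 0.10 and 0.21. GABARAPL2 differed by 0.007, with 2 of its 4 probe sets above 0 and 2 below (-0.09 to 0.02), so it has no settled direction. MAP1LC3A differed by -0.004. GABARAP and MAP1LC3B were therefore the 2 members of the family with every probe set above 0, at less than 1.2-fold. With _x_at and _s_at probe sets left out, the family median was -0.004.

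Cargo receptors had 3 of 4 genes above 0, beside 47.6% of all genes, and a median of 0.09. SQSTM1 (p62), which links ubiquitinated cargo to LC3 and is itself consumed by autophagy as a protein, read 11.99 in the EGR1 array and 11.95 in the empty-vector array (0.04). All 5 of its probe sets were above 0, up to 0.17. OPTN, a receptor for mitochondria and bacteria, read 9.29 in the EGR1 array and 9.15 in the empty-vector array (0.14), with its 3 probe sets from 0.14 to 0.26. TAX1BP1 read 10.79 in the EGR1 array and 10.65 in the empty-vector array (0.15), with 4 of its 5 probe sets above 0. NBR1 differed by -0.05 and its 6 probe sets split evenly. These arrays read mRNA, so they hold no measure of autophagic flux or of LC3 or p62 protein.

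TFEB and TFE3 were both above 0, where 47.6% of all genes lay. TFEB read 7.28 in the EGR1 array and 7.02 in the empty-vector array, a difference of 0.26, just under the 1.2-fold threshold, and 15.4% of 2610 genes of like level differed more. Its other probe set, under the floor, gave 0.06. TFE3 read 5.95 in the EGR1 array and 5.89 in the empty-vector array (0.06), and its second probe set gave 0.05. Both factors are controlled mainly through phosphorylation and location in the cell, which mRNA levels do not show.

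Lysosomal genes had a median of 0.02 over 11 members, with 7 above 0 (63.6%, beside 47.6% of all genes) and 4 below. None was at 1.2-fold, beside 7.07% of genes past the floor higher and 5.85% lower. Their mean was -0.0004. The cysteine protease CTSB (cathepsin B) was the highest, at 9.94 in the EGR1 array and 9.75 in the empty-vector array (0.19). Its 4 probe sets lay between 0.09 and 0.19. MCOLN1, the calcium channel of the lysosomal membrane, was the lowest at 7.61 in the EGR1 array and 7.79 in the empty-vector array (-0.18), and its other probe set gave -0.06. Cathepsins therefore did not share a direction: CTSL differed by -0.09 on its single probe set. For the aspartic protease CTSD 2 probe sets tied for the brightest, and they gave -0.07 and 0.09, so it has no settled direction.

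Among the glycosidases HEXA, the beta-hexosaminidase subunit, differed by 0.12 and 6 of its 8 probe sets were above 0. GLA (alpha-galactosidase A) differed by -0.09 and all 3 of its probe sets were below 0, down to -0.24. NEU1 (sialidase) differed by 0.03, CTSA, the protective protein that stabilises NEU1, by 0.02, and PSAP, the precursor of the saposin activators, by 0.02. The abundant membrane protein LAMP1 read 10.46 in the EGR1 array and 10.42 in the empty-vector array (0.04), and its other probe sets reached 0.25. LAMP2, the membrane protein needed for chaperone-mediated autophagy, read 9.82 on both arrays by its brightest probe set (0.001). Of its 9 probe sets 6 were below 0, and 2 of those past the floor gave -0.35, at 5.86 in the EGR1 array against 6.21 in the empty-vector array and at 6.38 in the EGR1 array against 6.72 in the empty-vector array. LAMP2 is spliced into isoforms with different tails, and which of them each probe set reads was not established here.

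**Figure D2:**
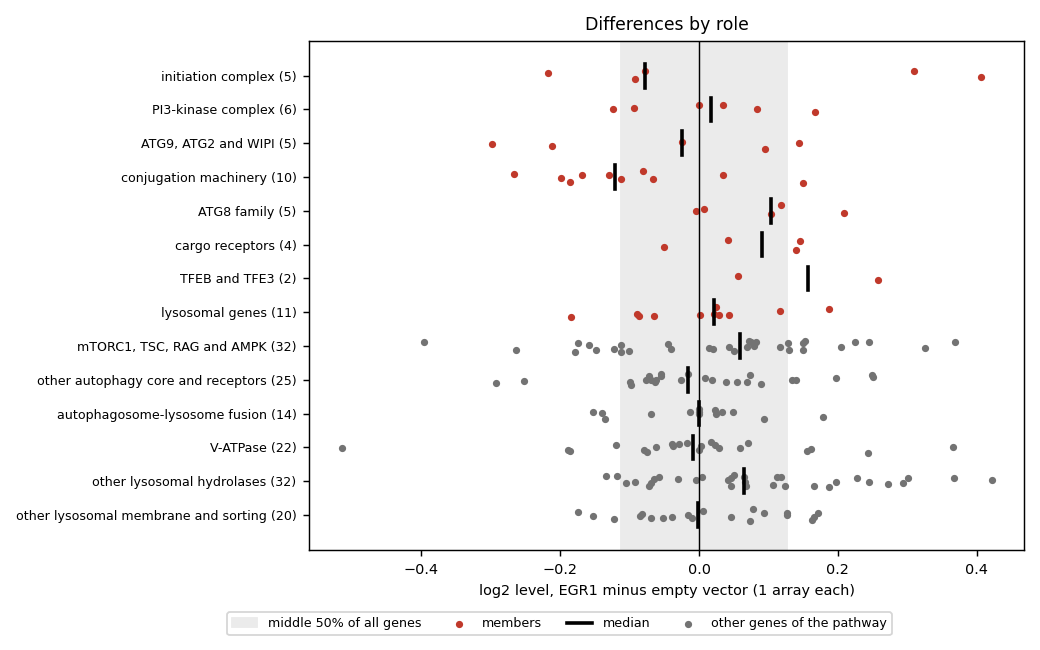
Log2 difference, EGR1 minus empty vector, for every measured gene of the 8 role groups of members (red) and of 6 further lists of the pathway (grey), with the number of genes in brackets and a black bar at each median. The shaded band is the middle 50% of all genes (-0.11 to 0.13). By these brightest probe sets the conjugation machinery has the lowest median (-0.12) and TFEB with TFE3 the highest (0.16), from 2 genes.

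The EGR type of element, GCGNGGGCG, searched on both strands, was found in 8 of the 50 member promoters (16%) and in 9.43% of all 35116 promoters of the table. Its fixed form GCGTGGGCG was found in no member promoter and in 0.795% of all, and GCGGGGGCG in 3 member promoters (6%) and 5.07% of all. The 8 genes were ULK1, ULK2, WIPI1, WIPI2, PIK3C3, GABARAP, SQSTM1 and TFE3. They included both paralogues of the ULK and WIPI pairs, whose members lay on opposite sides of 0. Their differences ran from -0.22 to 0.31. Of the 8 genes 6 were above 0, beside 47.6% of all genes and 44.6% of those past the floor. Their median was 0.07, against -0.04 in the 32 other members with a promoter, of which 15 were above 0. Of the 6 above 0 only ULK1 exceeded the pooled probe-set SD of 0.15. The differences of all genes with a match were not compared, and an effect of the element was not tested. SQSTM1 and WIPI2, shown above, differed by 0.04 and 0.10. PIK3C3 also held a match upstream of its start and is not printed. The matches of ULK1, WIPI1, ULK2 and GABARAP began at bases 10, 10, 26 and 29 after the transcription start.

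The TFEB type of core, CACGTG, which reads the same on both strands, was found in 7 of the 50 member promoters (14%) and in 7.26% of all. It was searched after the values were known. The 7 genes were LAMP1, MCOLN1, CTSA, CTSD, NEU1, ATG14 and ATG3, of which 5 are lysosomal. The LAMP1 promoter held 6 copies, 5 of them whole in the printed stretch, and the MCOLN1 promoter held 2. Differences of the 7 genes ran from -0.27 in ATG3 to 0.17 in ATG14 with a median of 0.02, against 0.007 in the 33 other members with a promoter. MCOLN1 and LAMP1 stood at -0.18 and 0.04. A match is a description of letters and says nothing about binding in these cells.

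Other genes of the pathway, in 6 lists chosen by role, had medians between -0.02 and 0.07. In the list of mTORC1, the complex that restrains autophagy, with its TSC and RAG regulators, AMPK and the TFEB relatives MITF and TFEC, 20 of 32 measured genes were above 0 (62.5%, beside 47.6% of all genes; median 0.06). Of 29 past the floor 1 was 1.2-fold or more higher (3.45%, beside 7.07% of all genes past the floor) and 2 were lower (6.90%, beside 5.85%). DDIT4 (REDD1), a stress-induced inhibitor of mTORC1, read 10.26 in the EGR1 array and 9.89 in the empty-vector array (0.37, 1.29-fold). FLCN, the folliculin that acts on the RAG proteins, read 6.31 in the EGR1 array and 6.71 in the empty-vector array (-0.40), but its other probe set gave 0.05. The kinase MTOR itself differed by -0.26, barely at the 1.2-fold threshold. Its other probe set past the floor gave -0.12 and one under it -0.04. RRAGC differed by 0.24.

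The list of other lysosomal hydrolases had 22 of 32 genes above 0 (68.8%, beside 47.6% of all genes) and a median of 0.07. Of its 28 genes past the floor 4 were 1.2-fold or more higher (14.3%, beside 7.07% of all genes past the floor) and none lower (beside 5.85%). No test was possible. The phospholipase PLA2G15 read 6.33 in the EGR1 array and 5.91 in the empty-vector array (0.42), with a second probe set at -0.05. The sulfatase ARSB read 7.42 in the EGR1 array and 7.05 in the empty-vector array (0.37), and its 3 probe sets past the floor ran from 0.12 to 0.37. GM2A, the activator of ganglioside breakdown, differed by 0.29 and CTSK by 0.27. The V-ATPase, the proton pump of the lysosome, had a median of -0.009 over 22 subunits, with ATP6V1E2 at 0.37, ATP6V1A at -0.19, ATP6V1D at -0.19 and ATP6V0A1 at 0.16. Of its 18 subunits past the floor 1 was 1.2-fold or more higher (5.56%, beside 7.07% of all genes past the floor).

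Medians of the remaining lists were -0.02 over 25 other autophagy genes and receptors, 0 over 14 fusion genes and -0.002 over 20 lysosomal membrane and sorting genes. In the first of these CCPG1, a receptor for the endoplasmic reticulum, differed by -0.29, the kinase TBK1, which phosphorylates OPTN, by -0.25, ATG9B by 0.25 and ULK3 by 0.25. CCPG1 was the single gene of the 24 past the floor at 1.2-fold, and its 3 probe sets past the floor ran from -0.31 to -0.03, with one under the floor at 0.39. That is 4.17% of the list lower, beside 5.85% of all genes past the floor. Both TBK1 probe sets were below 0. Among fusion genes the tethering subunits VPS16 and VPS33A differed by -0.15 and -0.14, TECPR1 by -0.13 and the GTPase RAB7A by 0.09. In the last list LAMP3 differed by -0.17, SCARB2 by 0.17, CD63 by 0.17 and NAGPA by 0.16, and no gene reached 1.2-fold.

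**Figure D3:**
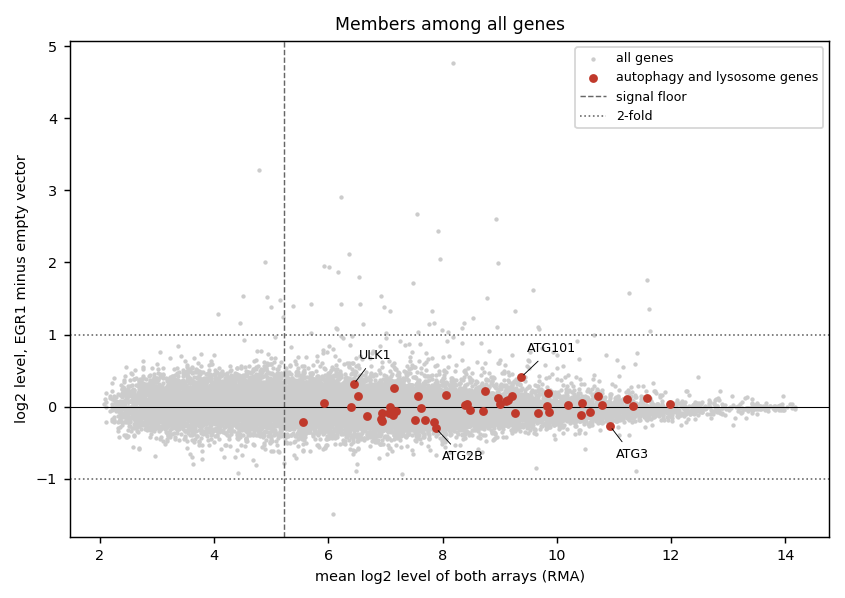
Log2 difference, EGR1 minus empty vector, against the mean log2 level of both arrays for all 18132 genes (grey) and the 48 members (red), with the signal floor dashed and 2-fold dotted. The members lie between -0.30 and 0.41, inside the body of the other genes, and ATG101 stands highest among them.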

How the data were processed

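Gene expression in 2 samples of H1299 cells was read on 1 Affymetrix array each, and the groups were taken from the sample titles. The authors deposited 1 log2 level per probe set and array, obtained by RMA according to the submitters' processing notes. That method subtracts background, equalises the distributions of the arrays and combines the probes of each set. Its software and version, and how many arrays entered it, are not given in the sources used. No further normalization was applied.

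Names for the 49395 probe sets came from the platform annotation, with symbols updated by Entrez ID from RefSeq (GRCh38.p14). The 44994 with 1 gene were used and 1832 with several were left out. The brightest probe set stood for a gene, and among tied ones the first identifier. Differences are EGR1 minus empty vector. No test was possible with 1 array per group, and the number of arrays limits the precision.

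Members and lists were chosen with earlier results of these data known. Every member could be named; of each other list up to 4 genes past the floor with the largest differences were named. Calculations used Python 3.11.15, pandas 2.3.3, numpy 2.4.6 and statsmodels 0.14.6 (lowess, span 0.3), and the collapse to genes was tested on simulated data. Alternatives covered the probe set, the floor, centring, lowess and probe sets of several genes.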

Additional observations from a re-analysis of the deposited data

How the results depend on the processing

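No paired analysis was possible because each group held 1 array. Under 10 alternatives, 2 of them chosen after seeing the data (the second brightest probe set, and centring on genes past the floor), no median moved by more than the 0.15 SD between probe sets, and no member reached 1.5-fold. Neither change of the floor could move a member's value or a median, nor could subtracting the median of all genes, which was 0. A member with 1 probe set keeps its value when all its probe sets are averaged. The median over all members ran from 0.001 to 0.05. The sign of 2 group medians turned, that of the initiation complex with the mean of all probe sets (0.03) and that of the ATG8 family without _x_at and _s_at probe sets (-0.004). The count of members 1.2-fold or more lower was 2 as reported, 0 with the mean of all probe sets, 1 without _x_at and _s_at probe sets, 1 with the second brightest probe set and 1 after centring on genes past the floor. ATG3 was under 1.2-fold in 5 of 10 alternatives, and after the lowess correction ULK2 (-0.27) took its place. ATG2B was under it in 1. The conjugation machinery no longer had the lowest group median with the mean of all probe sets, with the second brightest or without _x_at and _s_at probe sets. The count 1.2-fold or more higher was 0 with the second brightest probe set, where ATG101 and ULK1 have none. It was 3 after the lowess correction and 3 after centring on genes past the floor. The direction of 32 members held in every alternative that gave them a value, that of 15 turned in 1 or more, and UVRAG was at 0. The cause was not tested. With 1 array per group, differences of this size cannot be told from variation between cultures or arrays.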
